A study of Mus musculus with 4 samples.

Results

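The liver X receptors (LXR) and their targets were followed as 8 genes among the 24062 of the deposited table of read counts. They are the receptor genes Nr1h2 and Nr1h3, the sterol exporter genes Abca1 and Abcg1, Mylip, Srebf1, and the desaturase genes Scd1 and Scd2. The members were listed by name. Abca1, Scd1 and Scd2 had been picked for their pattern in these libraries, with more reads in germ-free recipients, so for them that difference is a description and not a test. All 8 had enough reads to be tested.

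RNA came from gBT-I cells, which are CD8+ T cells with a transgenic receptor for the herpes simplex virus peptide gB498-505. Splenocytes of transgenic donors housed specific pathogen free were activated in culture with that peptide and LPS, and were split and given IL-1 on days 2 and 3. They were injected into a vein of C57BL/6 recipients on day 4, and gBT-I cells were sorted from the spleen on day 7 after transfer. The recipients were specific pathogen free (SPF, 2 libraries) or germ free (GF, 2 libraries). The same protocol for donor cells and their activation is given for both groups. No label says whether replicates came from separate mice, so a p-value here reflects the spread among 4 libraries and nothing more.

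LXRα (Nr1h3) and LXRβ (Nr1h2) are nuclear receptors that pair with a retinoid X receptor and are switched on by oxysterols, which are oxidised forms of cholesterol. When cellular sterol is high they turn on genes that export cholesterol, that limit its uptake and that make and desaturate fatty acids. In mouse T cells, LXRβ signalling is known to restrain proliferation, and activated T cells express the sulfotransferase Sult2b1, which inactivates oxysterols.

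Abca1 and Srebf1 carry a letter pattern of the kind that LXR binds within the promoter sequences at hand, and those stretches are shown for that reason. The pattern was a direct repeat of receptor core sites 4 bases apart, spelled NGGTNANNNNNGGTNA and searched on both strands. RefSeq promoters (GRCm38.p6, 250 bases before to 50 after each start) were at hand for 5 of the 8 genes, and 0.718% of all 32851 promoters held the pattern. Below, 200 bases before the start are given 5′ to 3′ on the gene's own strand, with the match, which lies on the opposite strand, in capitals.
Abca1, chr4:53159896-53160095, minus strand: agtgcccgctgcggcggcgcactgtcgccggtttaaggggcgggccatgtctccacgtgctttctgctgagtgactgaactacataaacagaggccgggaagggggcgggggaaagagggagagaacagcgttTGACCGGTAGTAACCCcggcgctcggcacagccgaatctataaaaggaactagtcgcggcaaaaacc
Srebf1, chr11:60210472-60210671, minus strand: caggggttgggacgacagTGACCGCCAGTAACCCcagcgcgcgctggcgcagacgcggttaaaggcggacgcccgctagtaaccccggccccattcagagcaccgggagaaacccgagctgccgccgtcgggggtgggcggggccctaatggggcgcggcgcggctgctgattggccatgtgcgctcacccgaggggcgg
The match lay 67 to 52 bases before the start of Abca1 and 182 to 167 bases before one of the 3 listed starts of Srebf1. The promoters of Nr1h2, Nr1h3 and Mylip held none, which says only that these letters are not in those windows. A sterol regulatory element spelled TCACNCCAC was in none of the members' promoters and in 1.24% of all of them. Reads were counted per gene, so the starts of Srebf1 cannot be told apart.

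The receptor genes stood far apart in level. In GENCODE M21 (GRCm38, the assembly of mm10), Nr1h2 lies on chromosome 7 from 44549616 to 44553951 and Nr1h3 on chromosome 2 from 91184061 to 91202834, both on the minus strand. CPM of single genes below are TMM-scaled, whereas sums over marker lists and the floor for 0 reads are CPM of the plain library total, with no TMM scaling. Nr1h2 measured 159 and 156 CPM in SPF replicates 1 and 2 and 165 and 170 CPM in GF replicates 1 and 2. The GF values were both above the SPF values, by a margin that was small beside the level itself. Its log2 fold change was 0.09 (SE 0.19, 95% interval -0.40 to 0.57, edgeR adjusted p = 0.92).

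Nr1h3 rested on 18 and 33 reads in SPF and 15 and 12 in GF, or 1.57 and 2.33 against 1.02 and 0.86 CPM. Both GF values were below both SPF values, yet the 95% counting interval of SPF replicate 1, 0.93 to 2.48 CPM, contained the value of GF replicate 1. Its log2 fold change was -1.05 (SE 0.48, edgeR adjusted p = 0.86). Per kilobase of exons, Nr1h3 made up 0.91% and 1.38% of the receptor pair in SPF and 0.57% and 0.47% in GF, so in every library nearly all LXR transcripts were those of Nr1h2.

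Abca1, the transporter that passes cellular cholesterol to lipid-poor apolipoprotein, lies on chromosome 4 from 53030787 to 53159895 on the minus strand. It had 107 and 172 reads in SPF and 372 and 378 in GF, or 9.34 and 12.1 CPM against 25.4 and 27.0 CPM. The GF libraries lay close together and both stood above both SPF libraries. The SPF mean was 10.7 ± 2.0 CPM and the GF mean 26.2 ± 1.2 CPM (SD, n = 2 per group), which is 1.28 on the log2 scale (SE 0.26). Across the 4 pairs of a GF and an SPF library the log2 difference ran from 1.06 to 1.52, while replicates differed by 0.37 in SPF and 0.09 in GF. Abca1 has 10262 bases of exons, longer than 97.6% of tested genes. GF minus SPF differences followed length over 11194 tested genes (Spearman's rho 0.41, across genes, which are not independent replicates). Differences of replicate 2 minus 1 followed length more closely, with rho 0.57 in SPF and 0.52 in GF. With each library's length trend removed the log2 fold change of Abca1 was 0.99 (SE 0.26).

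Abcg1, the transporter that passes cholesterol to mature HDL particles, lies on the plus strand of chromosome 17, from 31057675 to 31117988. It measured 144 and 117 CPM in SPF and 114 and 164 CPM in GF. The groups overlapped, with GF replicate 1 the lowest and GF replicate 2 the highest of the 4. Its log2 fold change was 0.09 (SE 0.26, 95% interval -0.58 to 0.76, edgeR adjusted p = 0.94). Without GF replicate 2 the log2 value was -0.20, and without GF replicate 1 it was 0.32. Per kilobase, Abca1 made up 4.13% and 6.46% of the pair with Abcg1 in SPF and 12.9% and 9.89% in GF.

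Mylip, also called IDOL, encodes a ubiquitin ligase that sends lipoprotein receptors to lysosomes, and lies on the plus strand of chromosome 13, from 45389742 to 45412022. It measured 157 and 137 CPM in SPF and 127 and 129 CPM in GF. The GF libraries both lay below the SPF libraries, and the SPF replicates differed by more than SPF replicate 2 differed from either GF library. The log2 fold change was -0.20 (SE 0.20, 95% interval -0.70 to 0.30, edgeR adjusted p = 0.86).

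Receptors that Mylip acts on were read beside it. Lrp8, the gene of the apolipoprotein E receptor 2, measured 9.17 and 12.3 CPM in SPF and 8.05 and 13.9 CPM in GF, and the groups overlapped. Vldlr had 0 reads in every library.

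Srebf1, the transcription factor gene that drives fatty acid synthesis and is a direct LXR target, lies on chromosome 11 from 60199089 to 60222581 on the minus strand. It measured 111 and 124 CPM in SPF and 172 and 158 CPM in GF. Both GF values were above both SPF values, and the replicates of each group lay closer to one another than to the other group. The 4 GF minus SPF log2 differences ran from 0.35 to 0.64, against replicate differences of 0.16 and 0.12 in size. Its log2 fold change was 0.50 (SE 0.20, 95% interval -0.01 to 1.00, edgeR adjusted p = 0.86). Its exons share 109 bases with Rai1 on the opposite strand, and reads there cannot be told apart because the kit does not mark strand.

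Scd1 and Scd2 encode stearoyl-CoA desaturases, which put the first double bond into saturated fatty acids. Both lie on chromosome 19, Scd1 from 44394455 to 44407879 on the minus strand and Scd2 from 44293674 to 44306864 on the plus strand. Scd1 had 46 and 33 reads in SPF and 189 and 107 in GF, or 4.02 and 2.33 against 12.9 and 7.65 CPM. The lower GF library was still above the higher SPF library. The log2 fold change was 1.70 (SE 0.46), and the 4 GF minus SPF differences ran from 0.91 to 2.40.

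Scd2 measured 118 and 72.0 CPM in SPF and 177 and 148 CPM in GF. Here too both GF values were above both SPF values. Its log2 fold change was 0.78 (SE 0.30), with single differences from 0.33 to 1.30. For Scd2 the SPF replicates were 0.71 apart on the log2 scale, more than the difference of GF replicate 2 and SPF replicate 1. Without SPF replicate 2 the log2 fold change was 0.45, and without SPF replicate 1 it was 1.18. With no library left out and the length trend removed, the log2 fold change of Scd2 was 0.58 (SE 0.37).

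Both desaturase genes were higher in the library numbered 1 of each group. For Scd1 replicate 2 minus 1 was -0.75 in SPF and -0.74 in GF, and for Scd2 it was -0.71 and -0.26. B cell markers moved the same way: the 14 markers summed to 120 and 148 CPM in the libraries numbered 1 and to 29.1 and 30.7 CPM in the others. So did 5 defining macrophage markers (Csf1r, Lyz2, C1qa, C1qb and C1qc). They had 73 and 76 reads in the libraries numbered 1 and 14 and 0 in SPF and GF replicate 2. Lyz2 alone gave 48 and 65 of the reads in the libraries numbered 1. Cd68 and Itgam, on the same macrophage list, went the other way. Cd68 had 40 and 91 reads in SPF and 60 and 151 in GF, and Itgam 1019 and 1485 in SPF and 1070 and 1630 in GF. The part of all these markers in the desaturase values was not tested. GF replicate 2 had 0 reads of the 5 defining macrophage markers, 378 of Abca1 and 107 of Scd1. In GF replicate 1 these were 76, 372 and 189 reads.

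Scd1 made up 3.69% and 3.52% of the desaturase pair per kilobase in SPF and 7.60% and 5.50% in GF, so Scd2 was the main form in every library. The lowest bound of the exact 95% binomial intervals in GF was 4.53% and the highest bound in SPF was 4.91%, so the interval of GF replicate 2 overlapped those of SPF. Of the 50-base stretches of the longest Scd1 transcript, 4.66% also occur in other genes, Scd3, Scd2 and Scd4 among them, and 4.01% for Scd2, so a few reads may have been lost or shared. Scd3 had at most 2 reads in a library. Scd4 measured 3.23 and 1.62 CPM in SPF and 4.30 and 2.43 CPM in GF, and the groups overlapped.

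**Figure D1:**
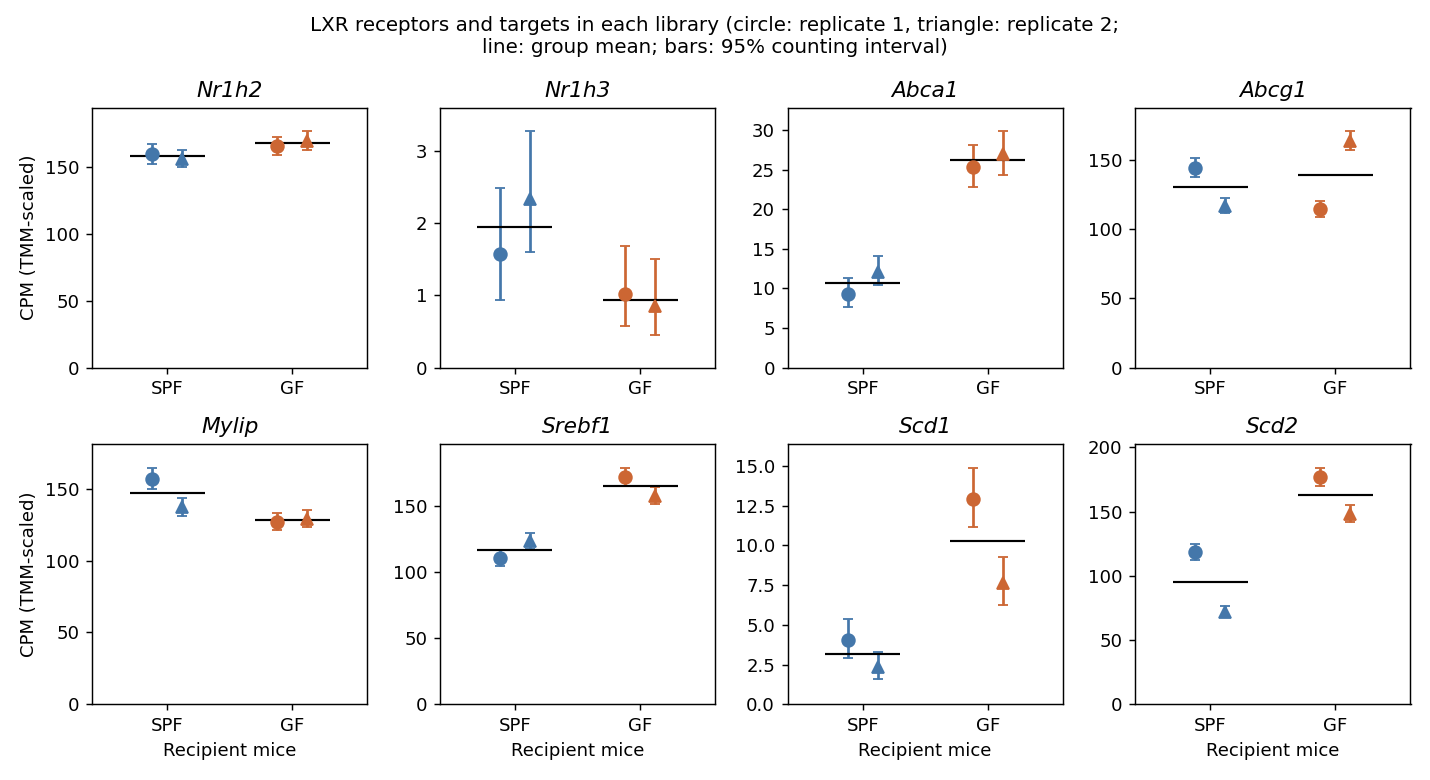
TMM-scaled CPM of each of the 8 genes in the SPF and GF libraries, with circles for replicate 1, triangles for replicate 2, a line at the group mean and bars for the 95% Poisson counting interval. Abca1, Srebf1, Scd1 and Scd2 have both GF libraries above both SPF libraries, as does Nr1h2 by a small margin, while Abcg1 overlaps.

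Of 11271 genes tested, 0% were called higher and 0% lower in GF by edgeR's quasi-likelihood test with Benjamini-Hochberg adjustment, so 0 of the 8 members passed. The smallest adjusted p of all genes was 0.86. At an unadjusted p under 0.05 stood 3.22% of tested genes, 2.17% higher and 1.05% lower in GF, and 3 members, Abca1, Scd1 and Scd2, were among the higher ones, which are those picked for their pattern. DESeq2, limma-voom and the edgeR exact test also called 0 members, where DESeq2 called 0.0521% of genes higher and 0.00651% lower and the exact test 0.071% and 0.00887%. Without SPF replicate 2 the edgeR quasi-likelihood test called 6.77% of genes higher and 4.7% lower, and Abca1 was the 1 member among them. Both GF libraries were above both SPF libraries for 5 members and below for 2, against 16.8% and 16.4% of all tested genes. Nothing is read from those counts, since the members were chosen on this contrast. The median log2 fold change of the 8 genes was 0.29, beside -0.00 over all tested genes. That median includes the 3 members picked for being higher in GF, so nothing is read from it either.

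**Figure D2:**
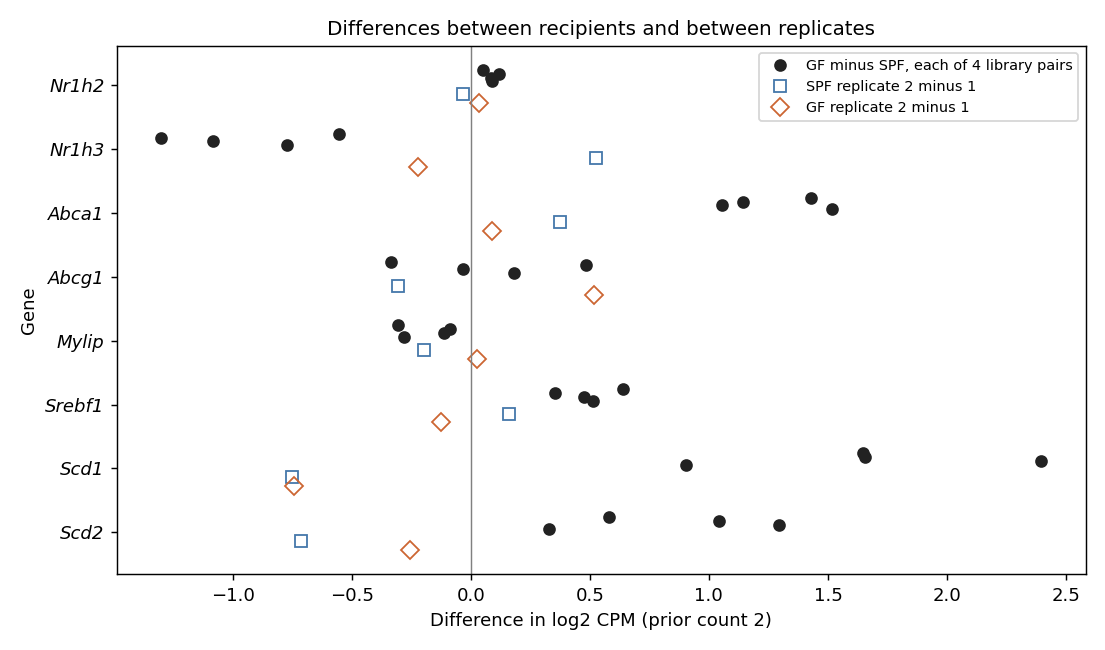
Differences in log2 CPM for each gene, with black circles for the 4 pairs of a GF and an SPF library and open symbols for replicate 2 minus 1 within SPF (square) and within GF (diamond). For Abca1, Srebf1 and Scd1, and by small margins for Nr1h2 and Nr1h3, all 4 pairs exceed both replicate differences in size, whereas for Abcg1, Mylip and Scd2 they do not.

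Levels of different genes were compared per kilobase of exons. In SPF the order of the means was Nr1h2 at 78.6, Mylip at 45.5, Srebf1 at 27.2, Abcg1 at 19.1, Scd2 at 17.4, Abca1 at 1.05, Nr1h3 at 0.91 and Scd1 at 0.66 CPM per kilobase. Abcg1 and Scd2 overlapped between libraries, as did Abca1 and Nr1h3, and Nr1h3 and Scd1. In GF the means were 83.5 for Nr1h2, 39.6 for Mylip, 38.4 for Srebf1, 29.8 for Scd2, 20.4 for Abcg1, 2.55 for Abca1, 2.13 for Scd1 and 0.44 CPM per kilobase for Nr1h3. There Mylip overlapped with Srebf1, and Abca1 with Scd1, while Scd2 lay above Abcg1 in both libraries. Among tested genes, Nr1h2 stood at percentile 92.2 of level per length, while Abca1, Scd1 and Nr1h3 stood at 16.6, 14.3 and 8.08.

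**Figure D3:**
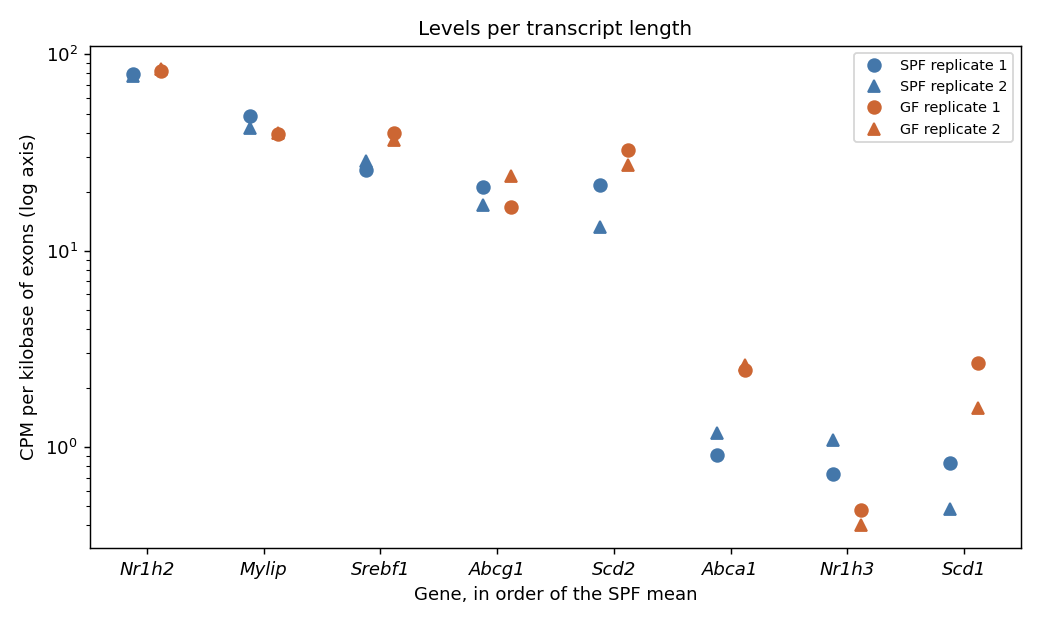
Level of each gene as CPM per kilobase of exons on a log axis, in order of the SPF mean, with blue for SPF, orange for GF, circles for replicate 1 and triangles for replicate 2. Abca1, Nr1h3 and Scd1 lie apart below the others in every library.

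LXR acts as a dimer with a retinoid X receptor and through coactivators and corepressors. Of 16 tested genes of that list, 0 passed in either direction, and 13 were higher and 3 lower in GF. In 1 the GF libraries both exceeded the SPF libraries and in 1 both lay below. Over all 11271 tested genes, 5597 were higher and 5674 lower, 16.8% had both GF libraries above SPF and 16.4% both below. These all-gene values stand beside the counts of every list below, and nothing is read from the counts. The log2 fold changes of the 16 genes had a median of 0.32, which became 0.08 once the length trend was taken out. The median exon length of these genes was 7666 bases. Rxra, which encodes RXRα, measured 17.4 and 28.3 CPM in SPF and 41.8 and 53.3 CPM in GF. It was the gene whose groups did not overlap upward, with a log2 fold change of 1.06 (SE 0.32). Its SPF replicates were 0.70 apart on the log2 scale, more than the 0.56 between GF replicate 1 and SPF replicate 2. Rxrb, another partner gene, measured 109 and 127 CPM in SPF and 106 and 120 CPM in GF, and Rxrg had 0 reads in all. The coactivator gene Ncoa6 had a log2 fold change of 0.34 (SE 0.28), with overlapping groups.

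Other known LXR targets did not share one direction. Of 26 listed, 13 had enough reads, of which 7 were higher and 6 lower in GF, and 0 passed. In 4 both GF libraries were above SPF and in 3 both below, beside 16.8% and 16.4% of all tested genes. The median log2 fold change of the list was 0.06. Apoe, the gene of apolipoprotein E, measured 5.24 and 4.59 CPM in SPF and 11.4 and 7.44 CPM in GF, a log2 fold change of 0.94 (SE 0.36). The phospholipid transfer protein gene Pltp measured 34.1 and 29.4 CPM in SPF and 42.7 and 42.6 CPM in GF (log2 fold change 0.42, SE 0.21). The Δ5 desaturase gene Fads1 went the other way, at 16.8 and 16.0 CPM in SPF and 10.2 and 11.7 CPM in GF (log2 fold change -0.58, SE 0.26). The other 13 targets, among them Abcg5, Abcg8, Lpl, Mertk and Cd5l, had at most 6 reads in any library.

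Genes that form, inactivate or sense oxysterols were mostly near or at 0. Ch25h, which makes 25-hydroxycholesterol, Cyp7b1 and Cyp11a1 had 0 reads in every library, where 3 reads would be 0.21 to 0.26 CPM. Of 5 tested genes of this list 3 were higher and 2 lower, 0 passed, and the median log2 fold change was 0.05. Sult2b1, the oxysterol sulfotransferase gene, had 16 and 24 reads in SPF and 36 and 26 in GF, or 1.40 and 1.69 against 2.46 and 1.86 CPM. Gpr183, also called EBI2, a receptor that guides lymphocytes along oxysterol gradients, measured 91.7 and 79.4 CPM in SPF and 56.3 and 50.9 CPM in GF. Both GF values were below both SPF values, with a log2 fold change of -0.67 (SE 0.21). Ebp, also a gene of cholesterol synthesis, differed by -0.29 (SE 0.25) on the log2 scale.

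The proteins that hold or release SREBP precursors gave a median log2 fold change of 0.03, with 8 of 12 higher, 4 lower and 0 past the test. Srebf2, the transcription factor gene of cholesterol synthesis, measured 127 and 216 CPM in SPF and 281 and 296 CPM in GF (log2 fold change 0.75, SE 0.31). Both GF values were above both SPF values, but SPF replicate 2 lay nearer to GF replicate 1 than to SPF replicate 1. Per kilobase, Srebf1 made up 50.7% and 40.3% of its pair with Srebf2 in SPF and 42.0% and 38.7% in GF. The endoplasmic reticulum sterol factor gene Erlin1 had a log2 fold change of -0.39 (SE 0.24), and Fbxw7, whose product marks nuclear SREBP for degradation, one of 0.25 (SE 0.20).

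Cholesterol synthesis and uptake genes, which answer to SREBP-2, had 14 of 22 tested genes higher and 8 lower in GF, and 0 passed. In 8 both GF libraries were above SPF and in 0 both below, beside 16.8% and 16.4% of all tested genes. The median log2 fold change of the list was 0.06. The phosphomevalonate kinase gene Pmvk measured 14.1 and 10.9 CPM in SPF and 19.2 and 15.4 CPM in GF (log2 fold change 0.47, SE 0.28).

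In fatty acid synthesis and desaturation beyond Scd1 and Scd2, 14 of 17 tested genes were higher and 3 lower, and 0 passed. Both GF libraries were above SPF in 4 and below in 3, beside 16.8% and 16.4% of all tested genes. The median log2 fold change of the list was 0.19, and 0.09 with the length trend removed. Besides Fads1, the elongase gene Elovl5 was lower, at 233 and 218 CPM in SPF and 172 and 193 CPM in GF (log2 fold change -0.30, SE 0.20). The acyl-CoA synthetase gene Acsl4 measured 101 and 84.8 CPM in SPF and 110 and 111 CPM in GF (log2 fold change 0.25, SE 0.20). Fasn, the fatty acid synthase gene and a target of both LXR and SREBP-1, measured 103 and 200 CPM in SPF and 168 and 256 CPM in GF, and the groups overlapped.

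Genes of sterol transport and storage, with the Mylip substrates, had 12 of 16 higher and 4 lower, with 0 past the test. Both GF libraries were above SPF in 6 and below in 0, beside 16.8% and 16.4% of all tested genes. The median log2 fold change of the list was 0.15, and 0.08 with the length trend removed. Soat2, which esterifies cholesterol for storage, measured 35.9 CPM in both SPF libraries and 52.3 and 46.4 CPM in GF (log2 fold change 0.46, SE 0.20). Npc1, which moves cholesterol out of lysosomes, measured 54.7 and 85.7 CPM in SPF and 90.9 and 115 CPM in GF (log2 fold change 0.55, SE 0.29). Its SPF replicates were 0.65 apart on the log2 scale, more than the 0.08 between GF replicate 1 and SPF replicate 2.

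**Figure D4:**
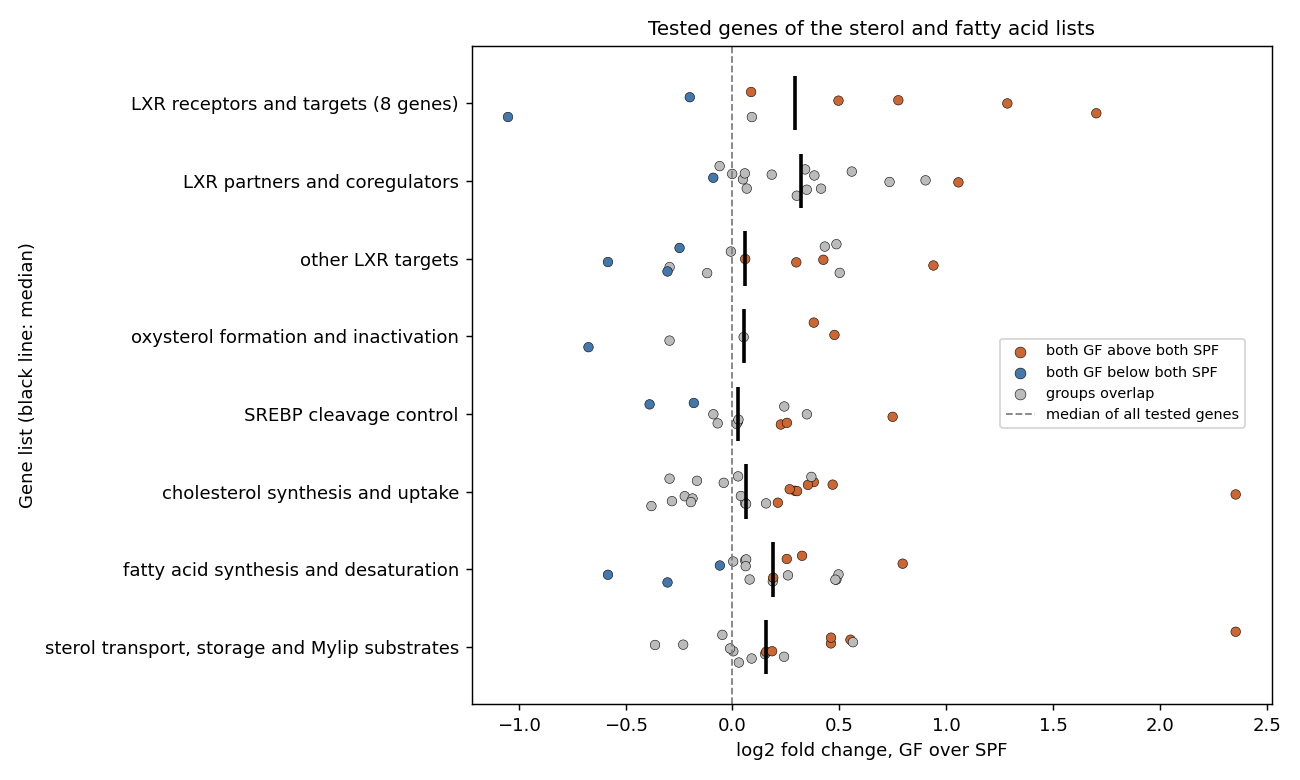
Log2 fold change of GF over SPF for each tested gene of the 8 genes and of 7 related lists, with a black line at each median and a dashed line at the median of all tested genes. Orange marks genes with both GF libraries above both SPF libraries, blue those with both below and grey those that overlap. The medians of the lists lie between 0.03 and 0.32.

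The genes most like Abca1, Scd1 and Scd2 were sought among tested genes of at least 10 CPM on average, by the root mean square distance of log2 CPM centred over the 4 libraries. For Abca1 these were Tspan2, Fam129b and Tgfb3, at distances of 0.03, 0.05 and 0.08. Tspan2, which encodes a tetraspanin, measured 12.2 and 14.9 CPM in SPF and 31.8 and 34.4 CPM in GF. For Scd1 the nearest were Nacc2, 5830411N06Rik and Ddit4, at 0.27, 0.28 and 0.28, and Ddit4, an inhibitor gene of mTORC1, measured 55.4 and 40.7 CPM in SPF and 138 and 78.4 CPM in GF. For Scd2 they were Smim24, Rom1 and Bend3, at 0.08, 0.09 and 0.12. With 4 libraries, such likeness is a description only.

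The libraries held 11544960 and 14026051 reads in SPF and 14219354 and 14431533 in GF. Replicates of a group differed by more than counting noise (chi-square per degree of freedom 89.2 in SPF and 43.9 in GF). Some pairs across groups were more alike than replicates. SPF replicate 2 gave 29.5 with GF replicate 1 and 18.4 with GF replicate 2. SPF replicate 1 gave 56.4 and 144 with the same GF libraries. All 6 defining CD8 T cell markers, Cd3d, Cd3e, Cd3g, Cd247, Cd8a and Cd8b1, were present and summed to 2981 to 4315 CPM per library. The macrophage list summed to 902 to 955 CPM in SPF and 959 to 1176 CPM in GF over 17 genes, of which Fcgr1 was at 0. Most of it was Ccr2, which T cells also express. Sums of the dendritic cell list (13 genes) were 460 to 720 CPM in SPF and 865 to 995 CPM in GF, mostly Itgax, and those of the NK cell list (10 genes, Klra8 and Klra4 at 0) were 315 to 435 and 214 to 225 CPM, mostly Cd7. The dendritic cell genes Zbtb46 and Flt3 together had 3 to 5 reads per library, while Itgax had 4350 and 9775 in SPF and 10838 and 14034 in GF. H2-Aa, H2-Ab1 and H2-Eb1, also on the dendritic cell list, had 124 to 206 reads in the libraries numbered 1 and 5 to 26 in the others. The part of these marker lists in the members' values was not tested. Neutrophil genes summed to at most 0.87 CPM, erythroid and platelet genes to at most 5.47 CPM with all haemoglobin genes at 0, stromal genes to 83.3 to 110 CPM, mostly Pecam1, and CD4 and regulatory T cell genes to 81.9 to 129 CPM. The most abundant gene was Ptprc in the CD8 T cell identity list, Cd79b in the B cell list, S100a8 in the neutrophil list, Itga2b in the erythroid and platelet list and Zbtb7b in the CD4 list. In sorted bulk cells, fewer cells that express a gene and less RNA of it per cell cannot be told apart.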

How the data were processed

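The authors deposited unnormalized read counts, as whole numbers by gene symbol, with 1 column per library. The submitters' processing notes name mm10 as the build and, as tools, featureCounts, Subread, TopHat, Picard, CASAVA and edgeR, with versions and settings not given in the sources used here. Per the labels' protocols, an Illumina TruSeq kit was used on 1 µg of RNA.

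Columns were matched to samples by the names in the labels. Counts were tested in R 4.3.3 with edgeR 4.0.16 (TMM, filterByExpr, 11271 genes kept, quasi-likelihood F test between GF and SPF with no covariate, two-sided p, Benjamini-Hochberg over all tested genes, threshold 0.05). A standard error is the log2 fold change over the root of its F value. Log2 CPM used a prior count of 2. Exon lengths came from GENCODE M21 and matched 99.3% of tested genes. The length trend was removed with a lowess offset per library. Alternatives used DESeq2 1.42.0 and limma 3.58.1. The tests were checked on simulated counts with 200 genes changed 4-fold, a dispersion of 0.02 and no structure by replicate number. The common dispersion of these data was 0.076, so the check does not show how many such changes would be found here. The Poisson and binomial intervals and the floors cover counting error only. Intervals of log2 fold changes were built on the standard error of the quasi-likelihood fit, which also takes in the spread among libraries.

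The 8 genes and the 16 gene lists were chosen with earlier results of these data known. The text names all 8 genes, the 3 genes of smallest p in each pathway list, the most abundant gene of each list of other cells, and the nearest profiles. Genes named beside these, such as Lrp8, Vldlr, Rxrb, Sult2b1, Scd4 and Fasn, were picked after seeing their values. Some genes that the rule chose are not reported here. Figures used matplotlib 3.10.9.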

Additional observations from a re-analysis of the deposited data

How the results depend on the processing

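The count of genes past the threshold was 0 with other scaling, other filters, limma-voom, the length trend removed, or thresholds of 0.01 and 0.1. It was 9 by DESeq2 and 9 by the edgeR exact test, and 0 to 1327 with each library left out, the highest without SPF replicate 2 and 17 without SPF replicate 1. With each library left out, 0 to 1 members passed. The 1 was Abca1 without SPF replicate 2 (edgeR adjusted p = 0.0056), where 6.77% of genes were called higher. A left-out library leaves a lone one, assumed to vary like the other group.

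Same-numbered libraries deviated together (correlation 0.71 over 11271 genes), but no label pairs them. With the replicate number as a block, 1206 genes passed (6.97% higher and 3.73% lower), among them 4 members, Abca1, Srebf1, Scd1 and Scd2. With the block and the length trend removed, 325 genes (2.01% higher and 0.869% lower) and 3 members passed, without Srebf1. Abca1, Scd1 and Scd2 had been picked for being higher in GF, so nothing is read from their passing in either fit.

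Abcg1 changed sign, to -0.20 with the length trend removed and -0.15 with the block as well, and ran from -0.20 to 0.32 with each library left out. The cause was not tested. The other 7 genes kept their direction in all 15 alternatives, with log2 values of 0.97 to 1.48 for Abca1, 1.27 to 2.14 for Scd1, 0.45 to 1.18 for Scd2, 0.41 to 0.57 for Srebf1, 0.07 to 0.21 for Nr1h2, -0.30 to -0.10 for Mylip and -1.30 to -0.74 for Nr1h3. The members were chosen for that direction in part. Nr1h3 and Scd1 rest on under 50 reads in SPF, which limits their precision. Among the list medians, leaving out a library turned LXR partners to -0.03 (without SPF replicate 1), oxysterol genes to -0.02 and -0.25 (without SPF or GF replicate 2) and SREBP cleavage control to -0.03 (without GF replicate 1).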
